A study of Mus musculus with 6 samples.

Results

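The 43 genes described here encode the transcription factor Myc, parts of RNA polymerase I, and proteins that make and assemble ribosomes in the nucleolus. They were chosen by name from knowledge of this pathway, but with earlier results of these data known, as were the further lists below. Their counts are therefore descriptions and not a blind test. All 43 were among the 18046 genes listed for each library. The cells were naive CD4+ T cells taken from spleens of C57BL/6 mice, whose age the labels give as 3 weeks. They were stimulated through CD3 and CD28 by antibodies for 3 days while being steered towards the T helper 1 (Th1) fate. One group of 3 libraries received a vehicle, which the labels do not name, and the other group of 3 received 20 µM LPC, which the labels do not spell out. Activation and the Th1 conditions were shared by both groups, and no freshly isolated or unstimulated cells were analysed here. It is not stated whether libraries within a group had separate animals or cultures as their source, and the p-values therefore reflect only how far these samples differed from each other, which may be technical.

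Ribosomes are built in the nucleolus. RNA polymerase I copies ribosomal DNA into a long precursor RNA, small nucleolar ribonucleoproteins (snoRNPs) cut and modify it, and separate sets of assembly factors fold it with ribosomal proteins into the small and the large subunit. Myc is induced when T cells are activated, drives their growth before division, and binds DNA at the letters CACGTG, called an E-box, in many genes of this pathway.

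Values are FPKM, fragments scaled for exon length and library total, so levels of different genes can be set side by side. Log2 changes are LPC minus vehicle on the scale log2(FPKM + 1), and a gene is said to have risen or fallen at an adjusted p under 0.05 from limma over all 10138 tested genes. Depth was roughly estimated at 18.75 to 19.00 M reads per library from the steps of low values. At these depths the low values lay on average 0.168 to 0.182 of a read from whole reads, so the estimate is loose. The 8 CD4 T cell marker genes, among them Cd3e and Cd4, summed to 1420 to 1490 FPKM in the 6 libraries, and none of the 8 passed. Within that sum Cd4 had means of 197 FPKM with vehicle and 164 with LPC (log2 change -0.27, adjusted p = 0.0875). All LPC libraries lay below all vehicle libraries for Cd4 and above them for Cd5 (0.12, adjusted p = 0.376). The CD8 T cell markers summed to 13.5 to 14.5 FPKM with vehicle and 10.9 to 12.8 with LPC, a difference whose part in the results was not tested. Nearly all of that sum was Cd8b1 (means of 13.8 and 11.7 FPKM, adjusted p = 0.142 in limma). Cd8a was near 0 in both groups (0.247 and 0.27 FPKM) and did not share the fall. The B cell, NK cell, myeloid and erythroid marker lists summed to at most 5.59 FPKM in any library. LPC replicate 3 stood apart: its FPKM sum was 641026, against 556561 to 588274 in the others. In that library the median deviation of the 1006 tested genes with the longest transcripts from the mean of the 6 libraries was -0.25, against -0.02 to 0.15 in the others. Since every library is scaled to its own total, a change in total RNA per cell, or in the share of cells of a given state, cannot be told apart from a change in a gene's own level.

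Promoter sequences from RefSeq (GRCm38.p6, 250 bases before to 50 bases after the start site) were matched by symbol for 37 of the 43 genes. The E-box letters CACGTG, which read the same on both strands, were in the promoters of 8 of these 37 genes (21.6%). Among 7924 tested genes with a promoter in the table the share was 12.3%, and among all 32851 promoter sequences 7.15%. The 8 genes were Rrn3, Nop2, Mybbp1a, Utp20, Nle1, Pes1, Wdr43 and Pno1. Of the genes that rose with LPC 4 of 16 held the letters, and of those that did not pass 4 of 21. The 250 bases before the start site are shown for Rrn3 and Nop2, the only members with the letters before that point, on the plus strand and with the E-box in capitals. The Rrn3 stretch is chr16:13780449-13780698 and holds the letters at 2 places, starting 215 and 48 bases before the start site. The Nop2 stretch is chr6:125131633-125131882, with the letters starting 60 bases before it.
Rrn3: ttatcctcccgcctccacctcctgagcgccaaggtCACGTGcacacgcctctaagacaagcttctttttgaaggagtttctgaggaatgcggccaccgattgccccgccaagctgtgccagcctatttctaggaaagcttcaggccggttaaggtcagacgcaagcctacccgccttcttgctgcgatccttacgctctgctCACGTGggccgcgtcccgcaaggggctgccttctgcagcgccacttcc
Nop2: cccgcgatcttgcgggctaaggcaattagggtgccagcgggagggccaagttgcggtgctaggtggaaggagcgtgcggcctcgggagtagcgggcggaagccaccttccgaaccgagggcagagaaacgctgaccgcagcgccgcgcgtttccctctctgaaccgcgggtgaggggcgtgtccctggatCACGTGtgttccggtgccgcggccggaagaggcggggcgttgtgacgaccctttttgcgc

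In the other 6 genes the letters lay after the start site, beginning at base 3 (Pes1), 18 (Wdr43), 24 (Nle1), 38 (Utp20 and Pno1) and 41 (Mybbp1a). Positions count from the start site of each promoter sequence, which for Wdr43 and Nle1 lies inside the gene's RefSeq bounds and not at their outer end. The 30 bases around each E-box are shown on the gene's own strand, again with its letters in capitals. They lie at chr11:72441347-72441376 (Mybbp1a, plus strand), chr10:88826765-88826794 (Utp20, minus strand), chr11:82908355-82908384 (Nle1, minus strand), chr11:3963965-3963994 (Pes1, plus strand), chr17:71616220-71616249 (Wdr43, plus strand) and chr11:17211540-17211569 (Pno1, minus strand). A match of letters is a description and does not show that Myc was bound there in these cells.
Mybbp1a: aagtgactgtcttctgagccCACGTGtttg
Utp20: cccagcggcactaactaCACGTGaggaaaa
Nle1: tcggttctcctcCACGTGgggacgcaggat
Pes1: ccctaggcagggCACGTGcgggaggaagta
Wdr43: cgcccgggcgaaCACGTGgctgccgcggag
Pno1: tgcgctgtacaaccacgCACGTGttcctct

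With LPC, 19 of the 43 genes rose and none fell. The risers included the RNA polymerase I subunit gene Polr1b, the snoRNP genes Fbl, Nop56, Gar1 and Nhp2, and 8 of 12 large subunit assembly genes. The log2 changes of the 19 risers ran from 0.30 to 0.78, the highest being that of the snoRNP gene Rrp9. The other 24 did not pass, among them Myc itself and the most abundant nucleolar genes, Npm1 and Ncl. Across all tested genes, 5.82% rose and 7.91% fell, against 19 of 43 and 0 of 43 here. At an unadjusted p under 0.05 limma gave 25 of the 43 genes higher and 0 lower, against 12.2% and 17.9% of all tested genes. The median log2 change was 0.25 for the 43 genes and -0.04 for all tested genes, and 40 of the 43 lay above 0, against 4230 of all 10138 tested genes (41.7%). The number above 0 was 38 with quantile normalization, 42 with median centring, 37 without vehicle replicate 1 and 35 without LPC replicate 2. All LPC libraries lay above all vehicle libraries for 25 of the 43, where the same held for 13.7% of tested genes, and the reverse held for none of the 43 against 20.7% of tested genes. All 43 passed the filter on low values, with Utp20 the lowest and Npm1 the highest in mean FPKM.

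**Figure D1:**
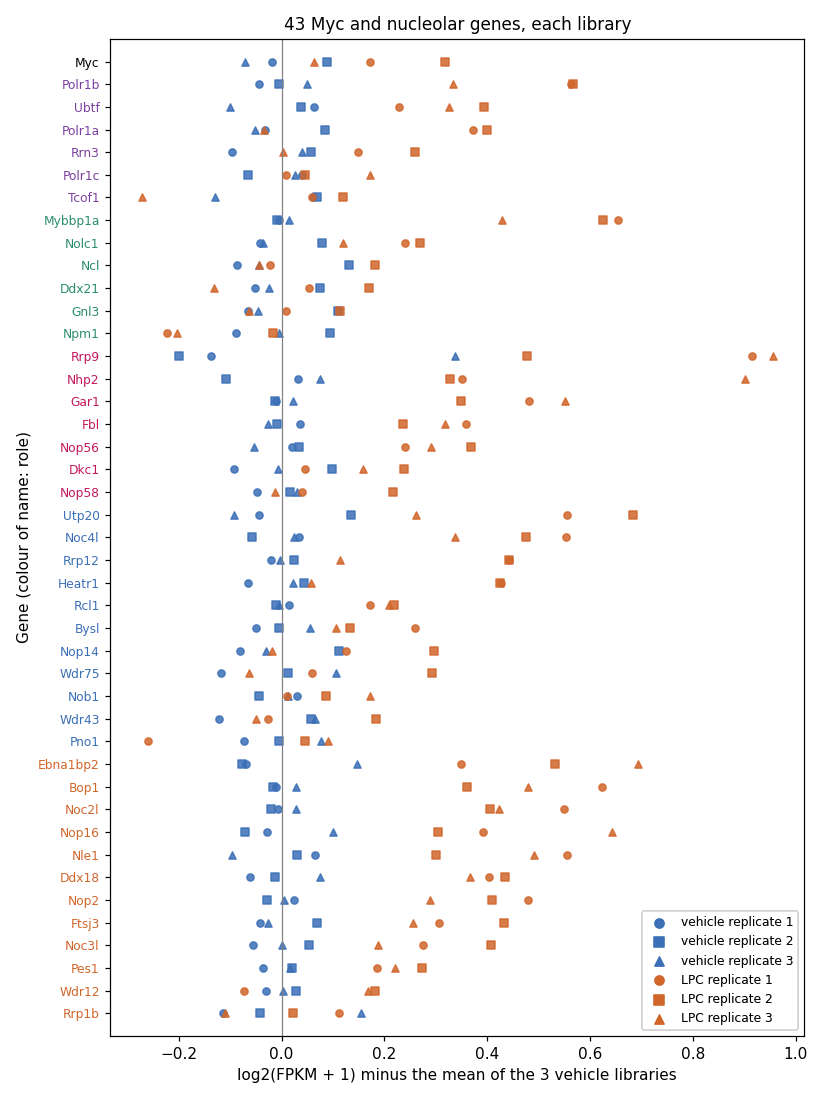
Each point is the log2(FPKM + 1) of a gene in a library, minus the mean of the 3 vehicle libraries (x axis), for the 43 genes (y axis, name coloured by role in the order Myc, RNA polymerase I machinery, proteins with several nucleolar tasks, snoRNPs, small subunit, large subunit). Vehicle libraries are blue and LPC libraries orange, with a marker shape per replicate number; the LPC points lie right of all vehicle points for 25 genes.

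The count of risers depended on single libraries. It was 9 without vehicle replicate 1, where 2.22% of all tested genes rose, and 11 without vehicle replicate 2, where 2.38% rose. Leaving out vehicle replicate 3 or LPC replicate 1 gave 14 each, where 4.37% and 3.02% of all tested genes rose. Without LPC replicate 2 it was 17 (7.98% of all tested genes), and without LPC replicate 3 it was 22 (5.41%). A fit without a library also has less power. The genes that passed in each of these 6 fits numbered 9: Polr1b, Mybbp1a, Rrp9, Gar1, Noc4l, Bop1, Ebna1bp2, Nle1 and Noc2l. With no filter on low values 5 rose, where 0.598% of all tested genes rose, and after each library's trend with GC share and transcript length was removed 30 rose, where 11.6% of all tested genes rose. The 11 genes gained there were Polr1a, Rrn3, Ncl, Nolc1, Nop58, Dkc1, Heatr1, Rcl1, Bysl, Pes1 and Noc3l.

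Myc was abundant in both groups and did not pass the test. Its vehicle values, in the order of replicates 1 to 3 as for every gene here, were 251, 270 and 242 FPKM, and its LPC values 286, 317 and 265 FPKM. Vehicle replicate 2 lay above LPC replicate 3, so the groups overlapped. The log2 change was 0.18 (SE 0.10, 95% interval -0.03 to 0.39, adjusted p = 0.221), and it was the third most abundant of the 43 genes. Myc lies on chromosome 15 at 61985341 to 61990361. Its dimer partner gene Max was listed at 82.2 ± 5.07 and 96.9 ± 6.99 FPKM (SD, n = 3 each) and did not pass either (log2 change 0.23, adjusted p = 0.104), although all LPC libraries lay above all vehicle libraries. Mxd3, which encodes a repressor that competes with Myc for Max, rose from 5.80 ± 0.571 to 7.92 ± 1.02 FPKM (0.39, adjusted p = 0.0356), the only call among 9 tested genes of the Myc network. Mxd3 did not pass when any of vehicle replicates 1 and 2 and LPC replicates 1 and 3 was left out (adjusted p = 0.063 to 0.165). The log2 changes of the related repressor genes Mxd1 (-0.19), Mxd4 (-0.11), Mxi1 (0.04), Mnt (-0.05) and Mga (-0.18) did not pass. Mycn, a relative of Myc, was under the filter and not tested, with 0.28, 0.20 and 0.12 FPKM with vehicle and 0.79, 0.74 and 0.95 FPKM with LPC.

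Of the 6 genes of the RNA polymerase I machinery, Polr1b and Ubtf rose and the other 4 did not pass. Polr1b, which encodes the second largest subunit, was listed at 11.66, 12.01 and 12.51 FPKM with vehicle and 18.3, 18.3 and 15.4 FPKM with LPC, with no overlap (log2 change 0.49, SE 0.10, adjusted p = 0.00695). Ubtf, whose product binds and opens ribosomal DNA for transcription, was listed at 35.61, 34.97 and 31.68 FPKM with vehicle and 40.04, 45.07 and 42.93 FPKM with LPC (0.32, SE 0.09, adjusted p = 0.0335). Here too all LPC libraries lay above the vehicle libraries, but Ubtf did not pass without vehicle replicate 1, 2 or 3 or LPC replicate 2 (adjusted p = 0.0546 to 0.131). Polr1b lies on chromosome 2 at 129100970 to 129128060 and Ubtf on chromosome 11 at 102304560 to 102323649.

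Polr1a encodes the largest subunit, which holds the active site together with the Polr1b product. Values were 21.7, 23.6 and 21.4 FPKM with vehicle and 29.04, 29.62 and 21.65 FPKM with LPC. LPC replicate 3 lay within the vehicle range while the other LPC libraries lay above it, and Polr1a did not pass (0.25, adjusted p = 0.166). It passed without LPC replicate 3 (0.39, adjusted p = 0.0127) and with the GC and length trends removed (0.36, 0.0032). Rrn3, the initiation factor that carries the polymerase to the promoter, was listed at 22.7, 25.4 and 25.1 FPKM with vehicle and 27.1, 29.4 and 24.4 FPKM with LPC (0.14, 95% interval -0.07 to 0.34, adjusted p = 0.351). Polr1c, a subunit that RNA polymerases I and III share, was listed at 94.5, 87.9 and 93.7 FPKM with vehicle and 92.6, 94.9 and 104 FPKM with LPC (0.08, interval -0.11 to 0.26). Tcof1 encodes treacle, a nucleolar scaffold for the polymerase. It was listed at 102, 103 and 89.4 FPKM with vehicle and 102, 106 and 80.9 FPKM with LPC (-0.03, interval -0.27 to 0.20), the lowest and the highest value both being LPC libraries.

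Of 7 snoRNP protein genes 5 rose, Fbl and Nop56 of the box C/D kind, Gar1 and Nhp2 of the box H/ACA kind, and Rrp9 of the U3 particle. Box C/D particles methylate ribosomal RNA and box H/ACA particles convert uridines in it to pseudouridine. Rrp9, which encodes a protein of the U3 snoRNP that directs early cuts in the precursor, had the largest log2 change of the 43 genes (0.78, SE 0.15, adjusted p = 0.00532). It was listed at 23.1, 22.1 and 32.5 FPKM with vehicle and 49.1, 36.0 and 50.5 FPKM with LPC. Both groups were spread widely, yet the lowest LPC library lay above the highest vehicle library.

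Gar1 was listed at 45.0, 44.9 and 46.0 FPKM with vehicle and 63.6, 58.0 and 66.8 FPKM with LPC (0.46, SE 0.09, adjusted p = 0.00532), with vehicle libraries close together and LPC libraries well above them. Nhp2 was listed at 104, 94.2 and 107 FPKM with vehicle and 130, 128 and 191 FPKM with LPC (0.53, SE 0.13, adjusted p = 0.0208). LPC replicate 3 was far above the others, and without it the log2 change was 0.34 (adjusted p = 0.022). Nhp2 did not pass without vehicle replicate 1 (0.0609) or 2 (0.0565), nor with median centring (0.053). The methyltransferase gene Fbl, which encodes fibrillarin, rose from 181 ± 4.08 to 224 ± 9.75 FPKM and the scaffold gene Nop56 from 144 ± 4.63 to 178 ± 8.05 FPKM (both 0.30, n = 3 each; adjusted p = 0.0344 and 0.0352). Neither passed without vehicle replicate 1, 2 or 3 or LPC replicate 1 (adjusted p = 0.0525 to 0.15), nor with quantile normalization (0.0694 and 0.0953). Nop58, which pairs with Nop56 in the same particle, did not pass (0.08, adjusted p = 0.572), nor did Dkc1, which encodes the pseudouridine synthase dyskerin (0.15, adjusted p = 0.297).
Rrp9 lies on chromosome 9 at 106477309 to 106485415, Gar1 on chromosome 3 at 129824912 to 129831407 and Nhp2 on chromosome 11 at 51619773 to 51623718. Without vehicle replicate 1 or 2 the risers among the snoRNP genes numbered 2, and without vehicle replicate 3 or LPC replicate 1 they numbered 3.

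Of the 12 large subunit assembly genes 8 rose, and all 12 log2 changes lay above 0 (0.01 to 0.52). Bop1 encodes a scaffold of the PeBoW complex, which is needed to process the RNA of the large subunit. Its level was 29.09, 28.97 and 29.94 FPKM with vehicle and 45.7, 38.0 and 41.3 FPKM with LPC (log2 change 0.49, SE 0.09, adjusted p = 0.00516). The vehicle libraries lay within 1 FPKM of each other and every LPC library lay above them. The other PeBoW genes did not pass: Pes1 was listed at 72.5 ± 1.59 and 85.1 ± 2.62 FPKM without overlap (0.23, adjusted p = 0.0818; 0.0428 with median centring and 0.0074 with the trends removed), and Wdr12 at 25.6 ± 0.547 and 27.4 ± 2.73 FPKM (0.09, adjusted p = 0.536).

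Noc2l and Noc3l encode partners in carrying pre-60S particles out of the nucleolus. Noc2l was listed at 67.8, 67.1 and 69.4 FPKM with vehicle and 100, 90.5 and 91.6 FPKM with LPC (0.46, SE 0.08, adjusted p = 0.00465). Noc3l stood at 8.98 ± 0.38 against 11.2 ± 0.939 FPKM, short of the threshold (0.29, adjusted p = 0.0605), with no overlap between groups. It passed with quantile normalization (0.0158), median centring (0.0218), the trends removed (0.00152) and without LPC replicate 3 (0.032). Ebna1bp2, an early large subunit factor, was listed at 11.7, 11.6 and 13.8 FPKM with vehicle and 15.97, 18.25 and 20.54 FPKM with LPC (0.52, SE 0.11, adjusted p = 0.00805). Nle1, which encodes a substrate of the remodelling ATPase Mdn1, was listed at 26.1, 25.4 and 23.2 FPKM with vehicle and 37.0, 30.8 and 35.3 FPKM with LPC (0.45, SE 0.10, adjusted p = 0.00926). In each of Noc2l, Ebna1bp2 and Nle1 the groups did not overlap.

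Ddx18, an RNA helicase gene, was listed at 30.1, 31.1 and 33.1 FPKM with vehicle and 41.9, 42.8 and 40.8 FPKM with LPC (0.40, SE 0.08, adjusted p = 0.00896). The groups did not overlap, and Ddx18 did not pass without vehicle replicate 1 (0.0633). Nop2, which encodes an RNA cytosine methyltransferase, was listed at 49.1, 47.3 and 48.5 FPKM with vehicle and 67.7, 64.5 and 59.3 FPKM with LPC (0.39, SE 0.09, adjusted p = 0.0109). Nop16 was listed at 28.9, 28.1 and 31.8 FPKM with vehicle and 39.1, 36.7 and 46.7 FPKM with LPC (0.45, SE 0.10, adjusted p = 0.0129). Neither Nop2 nor Nop16 passed without vehicle replicate 1 or 2 (adjusted p = 0.0519 to 0.0623). Ftsj3, an RNA methyltransferase gene, was listed at 30.7, 33.3 and 31.1 FPKM with vehicle and 39.4, 43.1 and 38.0 FPKM with LPC (0.33, SE 0.09, adjusted p = 0.0261). It did not pass without vehicle replicate 1, 2 or 3 or LPC replicate 1 (0.0566 to 0.126). Rrp1b was the least changed gene of this role, at 20.1 ± 2.07 and 20.2 ± 1.62 FPKM (0.01, 95% interval -0.21 to 0.22). Without vehicle replicate 1 the risers among the large subunit genes numbered 4, and without vehicle replicate 2 they numbered 5.
Bop1 lies on chromosome 15 at 76452988 to 76477249, Noc2l on chromosome 4 at 156234655 to 156247616, Ebna1bp2 on chromosome 4 at 118620799 to 118627776 and Nle1 on chromosome 11 at 82900768 to 82908446.

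Of the 11 small subunit genes Noc4l, Utp20 and Rrp12 rose and 8 did not pass. Noc4l, a factor of small subunit assembly and export, was listed at 48.6, 45.5 and 48.2 FPKM with vehicle and 70.1, 66.4 and 60.3 FPKM with LPC (log2 change 0.46, SE 0.09, adjusted p = 0.00646). Utp20, a very large scaffold protein of the small subunit processome, had the lowest level of the 43 genes. Its values were 4.36, 5.07 and 4.18 FPKM with vehicle and 7.12, 7.87 and 5.62 FPKM with LPC (0.50, SE 0.12, adjusted p = 0.0157). The groups did not overlap for either gene, and LPC replicate 3 was the lowest LPC library for both. Utp20 did not pass without vehicle replicate 1 (0.0681) or LPC replicate 1 (0.0714). Rrp12, an export factor gene, rose from 17.9 ± 0.298 to 22.9 ± 3.01 FPKM (0.33, adjusted p = 0.0459), and passed in none of the fits without a library other than that without LPC replicate 3 (0.0893 to 0.154).
Without vehicle replicate 1 or LPC replicate 1 the risers among the small subunit genes numbered 1. Heatr1 (0.30), Rcl1 (0.20) and Bysl (0.17) did not pass although all LPC libraries lay above all vehicle libraries. Heatr1 belongs to the complex that links transcription of the precursor to its processing, and passed without LPC replicate 3 (adjusted p = 0.0082), with quantile normalization (0.0408), median centring (0.0426) and the trends removed (0.00288). Its partner genes in that complex, Wdr43 (0.04, 95% interval -0.17 to 0.24) and Wdr75 (0.10, interval -0.13 to 0.32), did not pass, and their groups overlapped. The log2 changes of Nop14 (0.13) and of the late factors Nob1 (0.09), which makes the last cut in the small subunit RNA, and Pno1 (-0.04), its partner, did not pass. Noc4l lies on chromosome 5 at 110648419 to 110653382 and Utp20 on chromosome 10 at 88746607 to 88826814.

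Of 6 genes whose products have several tasks in the nucleolus only Mybbp1a rose. Mybbp1a encodes a Myb-binding protein that also acts in ribosomal RNA transcription and processing, and had the smallest adjusted p of the 43 genes. Its level was 78.82, 78.60 and 79.97 FPKM with vehicle and 125, 123 and 107 FPKM with LPC (log2 change 0.57, SE 0.09, adjusted p = 0.0019). The vehicle libraries were nearly equal and every LPC library lay above them. Mybbp1a lies on chromosome 11 at 72441327 to 72451770. Npm1, which encodes the histone and ribosome chaperone nucleophosmin, was the most abundant of the 43 genes. Its level was 1530 ± 97.6 FPKM in the vehicle group and 1380 ± 111 FPKM in the LPC group (-0.15, 95% interval -0.39 to 0.09), and has processed pseudogene copies that make its value less certain. Ncl, which encodes nucleolin, was listed at 287 ± 23.5 and 295 ± 26.2 FPKM (0.04, interval -0.18 to 0.26). The helicase gene Ddx21 (0.03) and Gnl3, which encodes nucleostemin (0.02), did not pass, and their groups overlapped. Nolc1, a snoRNP chaperone gene, was listed at 70.9 ± 3.46 and 82.2 ± 4.54 FPKM without overlap and did not pass (0.21, adjusted p = 0.124).

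**Figure D2:**
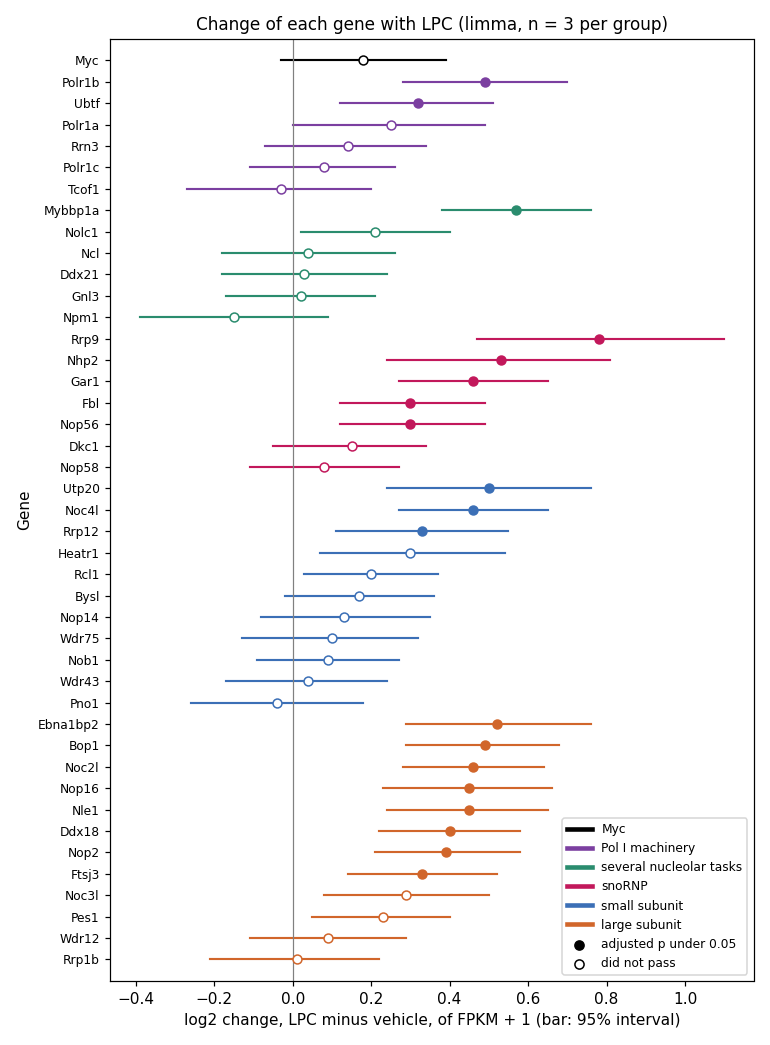
The log2 change of each of the 43 genes, LPC minus vehicle on the log2(FPKM + 1) scale, with its 95% interval from limma (bars; n = 3 per group), coloured by role. Filled points passed an adjusted p under 0.05, and they number 8 of 12 for the large subunit, 5 of 7 for snoRNPs, 3 of 11 for the small subunit, 2 of 6 for RNA polymerase I and 1 of 6 for proteins with several nucleolar tasks.

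The median log2 change was 0.40 for the large subunit genes, 0.30 for the snoRNP genes, 0.19 for the RNA polymerase I machinery, 0.17 for the small subunit genes and 0.03 for the genes with several nucleolar tasks. Differences between these roles were not tested. Taken by library, the median deviation of the 43 genes from the mean of the 6 libraries was -0.15, -0.10 and -0.12 with vehicle and 0.09, 0.16 and 0.09 with LPC, in replicate order. For the large subunit and for the snoRNP genes the groups lay apart, with every LPC median at 0.09 or more and every vehicle median at -0.13 or less. The groups also lay apart for the small subunit genes (vehicle at most -0.09) and the RNA polymerase I genes (vehicle at most -0.07), with LPC replicate 3 the lowest LPC library at 0.01 in both. For the genes with several nucleolar tasks they overlapped. This library was also low for long transcripts, as given above. The 21 of the 43 genes with the longer transcripts had a median deviation of -0.05 in LPC replicate 3 and of 0.11 and 0.24 in LPC replicates 1 and 2, while the 22 with the shorter transcripts had 0.13, 0.09 and 0.12. The part of transcript length in these values was not tested beyond the removal of the trend given above.

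**Figure D3:**
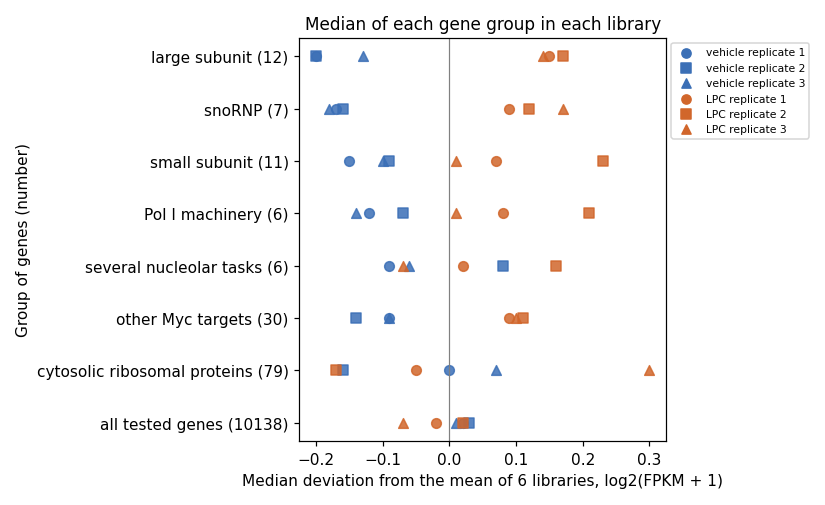
Median deviation of each group of genes from the mean of the 6 libraries, on the log2(FPKM + 1) scale (x axis), for 5 roles, other Myc targets, cytosolic ribosomal proteins and all tested genes (y axis, number of genes in brackets). Each point is a library, vehicle in blue and LPC in orange; the groups lie apart for large subunit, small subunit, snoRNP and RNA polymerase I genes and for other Myc targets, while the ribosomal proteins place LPC replicate 3 (0.30) apart from LPC replicates 1 (-0.05) and 2 (-0.17).

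A pattern among the genes that did not pass was seen only after their values were known, so it is given with no test. In the GENCODE M21 annotation of GRCm38, 6 of the 43 genes enclose snoRNA genes on their own strand: Nop56 (5 snoRNA genes), Nop58 (4), Ncl, Gnl3 and Wdr43 (3 each) and Dkc1 (1). Such snoRNAs are released from the introns of the host transcript. Of these 6 host genes only Nop56 rose, and their median log2 change was 0.06, while 18 of the other 37 genes rose with a median of 0.30. Among all tested genes matched to that annotation, the 43 included, 12 of 175 hosts rose (6.86%, median 0.00), against 566 of 9560 others (5.92%, median -0.04), and among the other nucleolar factors 1 of 3 hosts (median 0.21) and 23 of 103 others (median 0.14). The 6 hosts also had a lower GC share (median 44.0%) than the other 37 (52.7%). Across the 43 genes the log2 change and the GC share had a Pearson correlation of 0.55 (Spearman 0.53), and across 10057 tested genes of 0.26. These are descriptions over genes of the same 6 libraries, which are not independent replicates. With transcript length the correlation was -0.13 over the 43 genes and -0.28 over all tested genes. After the GC and length trends were removed, 30 of the 43 genes rose. Among the hosts Ncl, Nop58 and Dkc1 then passed beside Nop56, and Gnl3 and Wdr43 did not. In that fit most hosts and most of the other 37 genes rose.

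**Figure D4:**
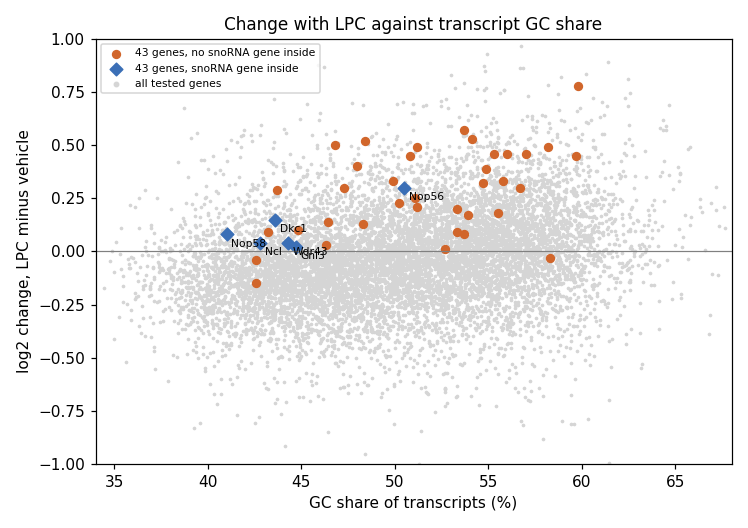
Log2 change, LPC minus vehicle on the log2(FPKM + 1) scale (y axis), against the GC share of the transcripts (x axis, %), for the 43 genes (orange circles, or blue diamonds where snoRNA genes lie inside) and all tested genes (grey; genes beyond these axes are not drawn). The 6 host genes have a median GC share of 44.0% and a median change of 0.06.

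Further genes of the same pathway, from lists named for their function, also rose more often than they fell. Of 111 other nucleolar factors 25 rose (22.5%) and 2 fell, where 5.82% of all tested genes rose and 7.91% fell. The median log2 change of the 111 was 0.14, against -0.04 for all tested genes. By part the risers were 3 of 16 genes of the RNA polymerase I machinery, 13 of 46 small subunit and snoRNP factors and 9 of 49 large subunit factors. Both genes that fell were in the RNA polymerase I part. The risers of that part were Cd3eap and the genes Polr2f and Polr2l, whose products other RNA polymerases share. The risers with the smallest adjusted p in each part were Cd3eap, an RNA polymerase I subunit gene (0.61, adjusted p = 0.00189), Ruvbl2, an ATPase gene of snoRNP assembly (0.49, 0.00391), and Wdr18, a gene of the complex that processes the large subunit (0.60, 0.00158). These 3 passed in every fit without a library. The shared polymerase subunit gene Polr2f rose by 0.61 (adjusted p = 0.00502), and Polr2l by 0.49 (0.0286), the latter lost when any of vehicle replicates 1 and 2 and LPC replicates 1 and 3 was left out (0.0643 to 0.121). Wdr46 (0.41), Pwp2 (0.44) and Nol6 (0.43) of the small subunit rose, as did Rrp15 (0.45), Wdr74 (0.41) and Ddx56 (0.49) of the large subunit, and each of these 6 was lost when vehicle replicate 1 or 2 or the LPC library of replicate 1 was left out, in 1 or 2 fits each (adjusted p = 0.0504 to 0.0643). The genes that fell were Taf1d, a subunit of the RNA polymerase I selectivity factor whose gene encloses 8 snoRNA genes (from 96.6 ± 5.15 to 68.2 ± 3.72 FPKM; -0.50, adjusted p = 0.00367), and Baz2a, which encodes part of a complex that silences ribosomal DNA (-0.36, adjusted p = 0.0479). Baz2a was lost when any of vehicle replicates 1 and 2 and LPC replicates 1 and 3 was left out (adjusted p = 0.0969 to 0.201), with median centring (0.067) or with no filter on low values (0.215). Leaving out vehicle replicate 1 left 8 risers among these 111, leaving out vehicle replicate 2 left 6 and leaving out LPC replicate 1 left 12. Of all tested genes 2.22%, 2.38% and 3.02% rose in these fits, in that order. Among the 111, 1 gene fell in each of them.

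Of 14 nuclear exosome genes, which trim the precursor RNA, Exosc5 (0.55, adjusted p = 0.00902) and Exosc4 (0.40, 0.0493) rose and none fell. Across all tested genes 5.82% rose and 7.91% fell. Exosc4 was lost when any of vehicle replicates 1 and 2 and LPC replicates 1 and 3 was left out (0.0794 to 0.256) and with a pseudocount of 0.1 (0.0508), a mean FPKM of 5 or more (0.0507), quantile normalization (0.0582) or median centring (0.0723).

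Of 30 genes known as Myc targets outside ribosome assembly 8 rose and none fell, where 5.82% of all tested genes rose and 7.91% fell. Their median log2 change was 0.24 (17 higher and 0 lower at an unadjusted p under 0.05 in limma, where 12.2% of all tested genes were higher and 17.9% lower). Of the 30, 25 lay above 0. Those below 0, none of which passed, were Odc1 (-0.07), Ccnd2 (-0.08), Slc3a2 (-0.06), Cdca7 (-0.01) and Eif4e (-0.19, adjusted p = 0.167). For Eif4e all LPC libraries lay below all vehicle libraries, while the reverse held for 18 of the 30. The polyamine enzyme gene Srm rose from a mean of 107 to 156 FPKM (0.54, adjusted p = 0.00344) and the prohibitin gene Phb from 37.5 ± 2.98 to 55.0 ± 9.19 FPKM (0.53, 0.00905), and both passed in every fit without a library. The DNA repair gene Apex1 (0.45) was lost without vehicle replicate 2 (0.0564) and the transferrin receptor gene Tfrc (0.43) without vehicle replicate 1 (0.0792). Leaving out vehicle replicate 1 or 2 left 3 risers in this list, and leaving out LPC replicate 1 left 5. In these fits 2.22%, 2.38% and 3.02% of all tested genes rose, in that order.

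Of the 79 cytosolic ribosomal protein genes, whose products the assembly factors fit onto the RNA, none rose and none fell in limma, with 1 higher and 1 lower at an unadjusted p under 0.05. All LPC libraries lay above all vehicle libraries for 0 of the 79 and below them for 4 (Rpl3, Rpl4, Rpl5 and Rpl17). Of all tested genes 13.7% and 20.7% did so. SEs ran from 0.09 (Rps6) to 0.19 (Rplp1) in this list, and from 0.08 (Noc2l) to 0.15 (Rrp9) among the 43 genes. The median log2 change of the ribosomal protein genes was 0.07, or -0.01 with quantile normalization and 0.11 with median centring. Single values ran from -0.25 to 0.36, the highest being Rpl39 (SE 0.17, adjusted p = 0.162 in limma). The summed level of the 79 was 180610, 165321 and 190976 FPKM with vehicle and 179409, 162645 and 223450 FPKM with LPC, so LPC replicate 3 was the highest and LPC replicate 2 the lowest of all libraries. Without LPC replicate 3 their median was -0.07, and without LPC replicate 2 it was 0.17 with 4 risers. With the GC and length trends removed the median was -0.07, 31 of the 79 lay above 0 instead of 55, and 7 fell. These genes are short and have many pseudogene copies, so the division of reads among copies makes single values less certain. Whether the ribosomal proteins and the assembly factors differed in their response was not tested.

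**Figure D5:**
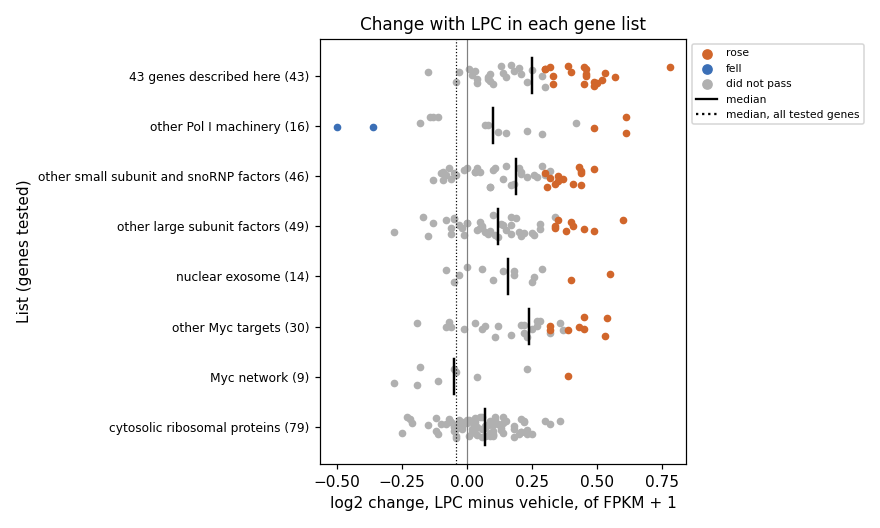
Log2 change of each tested gene, LPC minus vehicle on the log2(FPKM + 1) scale (x axis), for the 43 genes and 7 further lists (y axis, genes tested in brackets; vertical scatter has no meaning). Orange points rose, blue points fell and grey points did not pass; bars are list medians, from 0.25 for the 43 genes to 0.07 for the ribosomal proteins and -0.05 for the Myc network, and the dotted line is the median of all tested genes (-0.04).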

How the data were processed

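RNA was sequenced on a BGISEQ-500, aligned to GRCm38 with Bowtie2 and given as FPKM by RSEM, per the labels' protocols. The authors deposited FPKM in hundredths, 1 file per library; tool versions were not stated in the labels. RSEM divides reads shared by several genes by estimate. Read totals are not in the files; depth was estimated from whole-read steps of values from 0.03 to 0.3 FPKM.

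Groups follow the agent in the labels. The limma package (version 3.58.1, R version 4.3.3) fitted log2(FPKM + 1) with a mean-variance trend and no term but group, on the 10138 genes that reached 1 FPKM in at least 3 libraries. P-values were adjusted by Benjamini-Hochberg, and the script was tested on simulated data. Alternatives were a pseudocount of 0.1, no filter, a mean FPKM of 5 or more, quantile normalization, median centring, the replicate number as a block, removal of GC and length trends (natural splines, 4 degrees of freedom, 99.2% of tested genes), this with the block, and leaving out each library. Coordinates are RefSeq's (GRCm38.p6).

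The genes and lists were chosen with earlier results of these data known. Values in every library are given for Myc, the RNA polymerase I genes and the 15 members with the smallest adjusted p, and of each further list up to 4 changed genes are named; Baz2a and further unchanged genes were named after their values were seen. Genes of RNA polymerase III are not reported here.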

Additional observations from a re-analysis of the deposited data

How the results depend on the processing

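None of the 43 genes fell under any alternative run, and Myc did not pass under any (log2 change 0.12 to 0.25 without single libraries). Its lowest adjusted p in limma was 0.0527, with the replicate block and trends removed (log2 change 0.15). With the block alone it was 0.0815, and without LPC replicate 3 it was 0.0914. Without single libraries, 9 to 22 of the 43 genes rose, with a median change of 0.20 to 0.30. All genes that rose then numbered 225 to 809, and all that fell 288 to 1217. Other nucleolar factors had 6 to 27 risers and 1 to 3 that fell, other Myc targets 3 to 10 risers, and ribosomal proteins 0 to 4. With no filter on low values, where 18046 genes were tested, 5 of the 43 genes, 5 other nucleolar factors and 0 other Myc targets rose, 1 other nucleolar factor fell, and 108 genes in all rose and 83 fell. With median centring the median of the 43 genes was 0.29 and 1 other nucleolar factor fell. With quantile normalization 2 ribosomal proteins fell. With GC and length trends removed, 30 of the 43 genes rose (median 0.27), as did 49 other nucleolar factors, 17 other Myc targets and 1166 genes in all, and 7 ribosomal proteins fell. Of all calls 42.4% were rises, or 51.1% with quantile normalization, 53.1% with median centring and 50.3% with trends removed. The cause of these shifts was not tested.

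Whether libraries of equal replicate number shared a source was not tested. Deviations from the group means correlated at 0.018, 0.562 and 0.406 for numbers 1 to 3. Vehicle replicate 2 with LPC replicate 3 gave -0.498, and vehicle replicate 3 with LPC replicate 2 gave -0.447. Numbers 2 and 3 thus correlated with their own number, while vehicle replicate 1 correlated more with LPC replicate 3 (0.065) than with LPC replicate 1. With the replicate block 24 of the 43 genes rose, as did 39 other nucleolar factors, 16 other Myc targets, 3 ribosomal proteins and 1180 genes in all, while 1 ribosomal protein and 1661 genes in all fell. With the block and trends removed together, 32 of the 43 genes, 52 other nucleolar factors, 18 other Myc targets, 3 ribosomal proteins and 1459 genes in all rose, while 14 ribosomal proteins and 1415 genes in all fell.

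Among genes that did not pass, small changes took the other sign. Tcof1 was 0.02 and Pno1 0.01 with median centring, Pno1 was 0.01 with GC and length trends removed, with or without the block, and Ncl was -0.01 and Ddx21 -0.02 with quantile normalization. Without single libraries the log2 changes ran from -0.11 to 0.09 (Tcof1), -0.03 to 0.10 (Ncl), -0.04 to 0.11 (Ddx21), -0.03 to 0.08 (Gnl3), -0.04 to 0.08 (Wdr43), 0.00 to 0.18 (Wdr75), -0.11 to 0.07 (Pno1) and -0.05 to 0.09 (Rrp1b).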
